A study of Rattus norvegicus with 6 samples.

Results

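The core circadian clock genes were compared between wild type (WT) and Nono knockout (Nono-KO) cells of H9c2, a rat cell line grown from embryonic heart tissue that keeps features of muscle precursors. The genes were chosen by name because Nono is known as a partner of the Per proteins, namely Clock, Arntl (now named Bmal1), Npas2, Per1, Per2, Per3, Cry1, Cry2, Nr1d1 and Dbp. That choice was made with earlier results of these data known. All 10 have a row among the 16319 gene symbols of the deposited count table, and 9 of them had enough reads to be tested. WT cells carried an intact Nono gene. Nono-KO cells carried a frameshift made in Nono with CRISPR-Cas9, delivered on a plasmid that also confers puromycin resistance, and the stable line was selected with puromycin. The submitters name a GFP plasmid as the control, without saying whether the WT cells that were sequenced had received it. Cells of both genotypes were grown in DMEM with fetal bovine serum, and poly(A) RNA was sequenced from 3 libraries per genotype. The study describes 1 homozygous knockout line, so that the spread between libraries is not the spread between clones. The sources give no hour of harvest and no step that would set the clocks of the cells to a common time, so that a shift in the phase of the clock and a change in its mean level cannot be told apart.

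The mammalian clock is a feedback loop of transcription. Clock, or its relative Npas2, pairs with Arntl and binds E-boxes in the promoters of the Per and Cry genes, and the Per and Cry proteins return to the nucleus and repress Clock and Arntl. A further loop is formed by Nr1d1 (Rev-Erb alpha), which represses Arntl, and Dbp is an output transcription factor that binds D-boxes. Nono and its relatives Sfpq and Pspc1 are RNA- and DNA-binding proteins that have been found in complexes with Per proteins, and cells that are not synchronised hold clocks in many phases at once.

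The sequences that this loop reads were taken from RefSeq (build GRCr8), as windows from 250 bases before to 50 bases after an annotated start. Windows of 9 of the 10 genes were used, 11 in all since Clock and Nr1d1 had more than 1 start, and the promoter of Cry1 was not analysed here. They were searched on both strands for the E-box CACGTG, the E'-box CACGTT, the D-box TTATGTAA, the half-site AGGTCA of Rev-Erb and Ror receptors, and the cAMP response element TGACGTCA. Of all 33469 windows in that table, 6.42% held the E-box, 4.83% the E'-box, 0.893% the D-box, 16.2% the half-site and 1.83% the cAMP response element. Per2 is shown because its window held both an E'-box and a D-box, Nr1d1 for its E-box, Arntl for its half-site, and Dbp because it was the member with the largest rise. Each reads 5′ to 3′ on the strand of the gene, with the motifs in capitals.
Per2, chr9:99496944-99497243, minus strand: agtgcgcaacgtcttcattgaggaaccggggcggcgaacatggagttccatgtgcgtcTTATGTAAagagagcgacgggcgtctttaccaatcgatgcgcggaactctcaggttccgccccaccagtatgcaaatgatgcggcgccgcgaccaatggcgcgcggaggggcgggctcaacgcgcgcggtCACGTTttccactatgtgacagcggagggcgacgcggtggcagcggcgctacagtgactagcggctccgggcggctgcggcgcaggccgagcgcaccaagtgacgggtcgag
Nr1d1, chr10:84229405-84229704, minus strand: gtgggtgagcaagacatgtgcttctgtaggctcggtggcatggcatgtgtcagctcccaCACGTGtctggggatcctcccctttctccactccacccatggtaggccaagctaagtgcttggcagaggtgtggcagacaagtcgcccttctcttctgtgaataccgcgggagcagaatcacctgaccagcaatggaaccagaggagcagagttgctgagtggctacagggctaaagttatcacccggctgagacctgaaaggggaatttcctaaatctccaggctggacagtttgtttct
Arntl, chr1:176766078-176766377, plus strand: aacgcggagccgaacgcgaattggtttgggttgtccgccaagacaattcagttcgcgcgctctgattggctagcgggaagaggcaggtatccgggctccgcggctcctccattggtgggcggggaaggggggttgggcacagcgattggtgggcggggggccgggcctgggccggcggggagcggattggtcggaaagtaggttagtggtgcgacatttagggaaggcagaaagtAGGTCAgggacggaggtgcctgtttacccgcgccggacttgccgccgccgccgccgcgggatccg
Dbp, chr1:105312006-105312305, plus strand: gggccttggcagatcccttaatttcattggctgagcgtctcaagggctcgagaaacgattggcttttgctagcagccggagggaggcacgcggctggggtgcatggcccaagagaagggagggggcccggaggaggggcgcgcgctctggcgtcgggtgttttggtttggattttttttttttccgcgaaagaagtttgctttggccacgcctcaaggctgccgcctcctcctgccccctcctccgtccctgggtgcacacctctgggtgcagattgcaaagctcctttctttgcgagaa
In Per2 the E'-box began 62 bases and the D-box 192 bases before the start. The E-box of Nr1d1 began 191 bases and the half-site of Arntl 15 bases before theirs. Cry2 and the other start of Nr1d1 each held an E'-box, read on the opposite strand, at 212 and 174 bases before the start. None of the 5 motifs was spelled in the windows of Clock, Npas2, Per1, Per3 and Dbp, which says only that these letters do not stand there. No motifs overlapped, and 27.3% of all windows held at least 1 of the 5.

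Reads of Nono itself numbered 7329, 5884 and 5519 in WT and 109, 94 and 96 in Nono-KO libraries. Total counts were 17612958 to 19253858 per library. Values are given as CPM, counts scaled to the library total after correction by TMM, a factor for differences in library composition, and log2 fold changes (log2FC), their standard errors (SE) and adjusted p-values come from edgeR's quasi-likelihood test over 12028 genes. A gene is said to have risen or fallen where its adjusted p was under 0.05, and to be a DEG where it was under 0.01 with an absolute log2FC over 1. WT replicate 1 stood apart, with a chi-square per degree of freedom of 24.8 and 25.5 against the other WT libraries, which differed from each other by 11.8. Nono-KO replicate 3 also stood apart within its group, by 9.06 and 10.8 from replicates 1 and 2, which differed from each other by 2.69.

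The clock genes did not move as a block in Nono-KO cells. Clock, Cry1, Per2 and Per3 fell, Dbp and Cry2 rose, and Arntl, Per1 and Nr1d1 did not pass the test. The changes ranged from a Clock level at 19.3% of WT to a Dbp level 3.98 times that of WT. Of the 9 tested genes 4 fell, against 38.1% of all tested genes, and 2 rose, against 34.2%, so that the counts of the clock genes were near those of the transcriptome as a whole. Together 6 of the 9 rose or fell, against 72.2% of all tested genes. Clock and Cry1 were DEGs with lower and Dbp was a DEG with higher RNA, as were 18.7% and 10.8% of all tested genes. The median log2FC was -0.30 over the 9 genes and -0.05 over all genes. In 7 of the 9 the libraries of WT and Nono-KO did not overlap, which held for 75.1% of all tested genes. In bulk RNA, fewer cells that use a gene and less RNA per cell cannot be told apart.

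**Figure D1:**
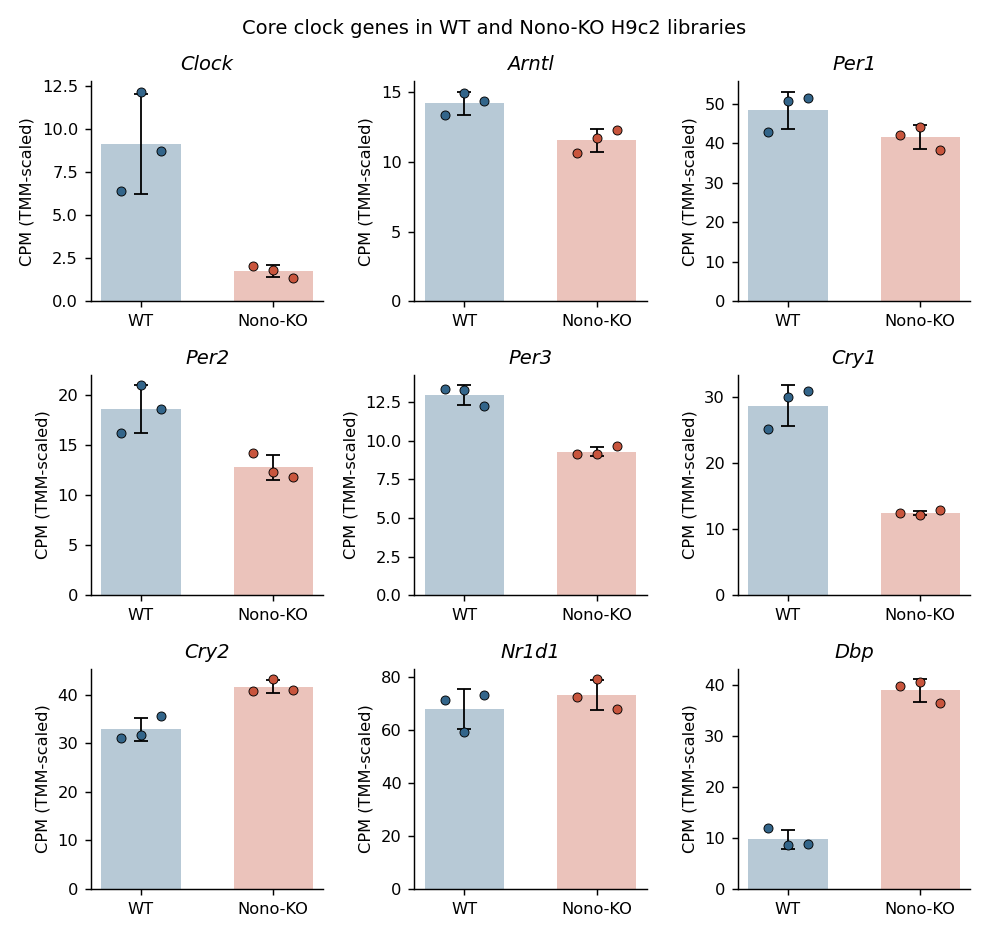
CPM after TMM scaling (vertical axes, from 0) of the 9 tested clock genes by genotype. Points are the 3 libraries of each genotype, drawn over bars for their mean with the SD as error bar, and the Dbp libraries lie at 36.4 to 40.5 CPM in Nono-KO against 8.50 to 11.9 CPM in WT.

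Among the activators, Clock, a bHLH-PAS protein with acetyltransferase activity, showed the largest fall. It had 129, 228 and 157 reads in WT and 35, 33 and 26 reads in Nono-KO libraries, or 6.42, 12.2 and 8.74 CPM against 2.05, 1.84 and 1.38 CPM. Every Nono-KO library lay under every WT library, and the WT libraries spread most, with a coefficient of variation of 31.9%. The log2FC of Clock was -2.38 (SE 0.27, adjusted p = 1.01e-05), and 1.73% of all tested genes had a lower value.
Arntl, the obligate partner of Clock, kept most of its RNA. Its level was 13.3, 15.0 and 14.4 CPM in WT and 10.7, 11.7 and 12.3 CPM in Nono-KO libraries. The groups did not overlap, yet the log2FC of -0.30 (SE 0.13) had an adjusted p of 0.0521. The call depended on WT replicate 1 and on the scaling, since Arntl passed without that library (-0.35, adjusted p = 0.0207) and with total counts in place of TMM (-0.35, adjusted p = 0.0319).
Npas2, which can stand in for Clock, was barely detected. It had 5, 0 and 1 reads in WT and 1, 1 and 2 reads in Nono-KO libraries, so that Npas2 did not exceed 2 reads in any Nono-KO library, and a difference within these few reads was not detectable at this depth.

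Among the repressors of the Per family, which bind Cry proteins and carry them to the nucleus, Per2 and Per3 fell by modest amounts. Per2 had 16.1, 20.9 and 18.5 CPM in WT and 14.2, 12.3 and 11.8 CPM in Nono-KO libraries. The groups did not overlap, and the log2FC was -0.54 (SE 0.14, adjusted p = 0.00399). Per3 had 13.3, 13.3 and 12.2 CPM in WT and 9.12, 9.13 and 9.64 CPM in Nono-KO libraries. Its libraries lay closest together of the 9 genes in WT, with a coefficient of variation of 4.82%, and its log2FC was -0.48 (SE 0.13, adjusted p = 0.00516). Per1, which is also induced directly by cAMP, serum and glucocorticoids, had 42.8, 50.6 and 51.5 CPM in WT and 42.2, 44.3 and 38.2 CPM in Nono-KO libraries. These groups overlapped, as WT replicate 1 lay under Nono-KO replicate 2, and the log2FC of -0.22 (SE 0.10) did not pass, with an adjusted p of 0.078. Without WT replicate 1 Per1 passed (-0.30, adjusted p = 0.00939), as it did with total counts (-0.27, adjusted p = 0.0243) and without a filter on low counts (-0.25, adjusted p = 0.0492).

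The cryptochromes, which repress Clock and Arntl directly, moved in opposite directions. Cry1 had 505, 560 and 554 reads in WT and 211, 217 and 242 in Nono-KO libraries, or 25.1, 29.9 and 30.8 CPM against 12.3, 12.1 and 12.8 CPM. The groups were far apart, and the log2FC was -1.20 (SE 0.12, adjusted p = 4.02e-06), which left 43.4% of the WT level. Cry2 had 31.1, 31.8 and 35.7 CPM in WT and 40.7, 43.3 and 41.1 CPM in Nono-KO libraries. All Nono-KO libraries lay above all WT libraries, and Cry2 rose by 0.34 on the log2 scale (SE 0.10, adjusted p = 0.0066).

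Nr1d1 and Dbp, both driven by Clock and Arntl through E-boxes, differed from each other. Dbp, a PAR bZIP factor, had 239, 159 and 159 reads in WT and 679, 728 and 687 in Nono-KO libraries, or 11.9, 8.50 and 8.85 CPM against 39.7, 40.5 and 36.4 CPM. Each Nono-KO library was more than 3 times as high as each WT library, and Dbp rose by 1.99 on the log2 scale (SE 0.14, adjusted p = 3.29e-07), above 96.4% of the tested genes. Nr1d1, a heme-binding nuclear receptor, had 71.3, 59.3 and 73.3 CPM in WT and 72.5, 79.3 and 68.2 CPM in Nono-KO libraries. These ranges overlapped, and its log2FC was 0.11 (SE 0.10, adjusted p = 0.365). Nr1d1 overlaps the thyroid hormone receptor gene Thra, which lies on the other strand, in the RefSeq annotation of GRCr8. Thra had 946, 890 and 960 reads in WT and 1547, 1876 and 1656 in Nono-KO libraries, a rise of 0.93 (SE 0.10), and since it is not stated whether reads were counted by strand, reads in the shared stretch cannot be assigned to either gene with certainty. LOC120093541, a predicted gene within the span of Cry1, had 0 to 2 reads per library.

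**Figure D2:**
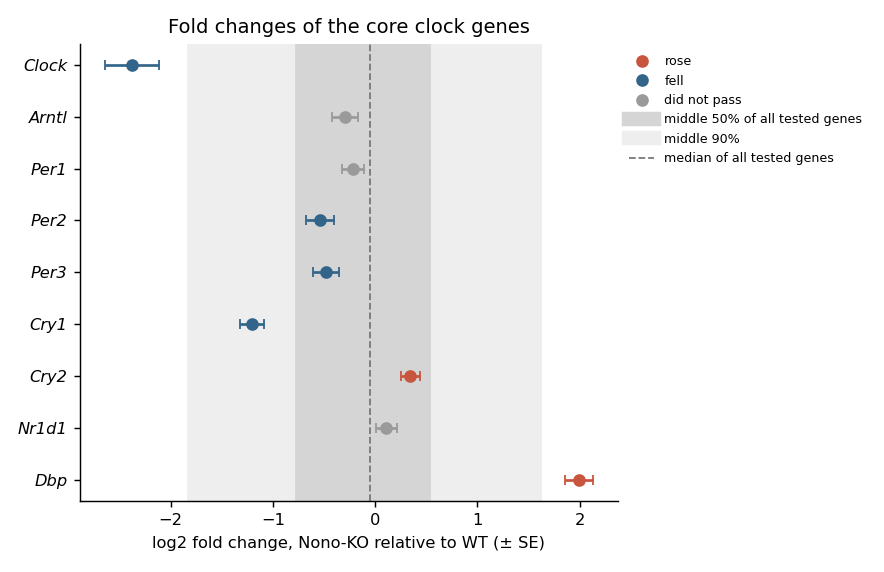
Log2FC of Nono-KO relative to WT (horizontal axis, points with SE) for the 9 tested clock genes (vertical axis), coloured by the outcome of the test. The shaded bands hold the middle 50% and 90% of all tested genes, -0.78 to 0.54 and -1.83 to 1.62, and Clock at -2.38 and Dbp at 1.99 lie outside the wider band.

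Ratios between pairs of clock genes within a library, which need neither scaling nor gene length, showed how unequally relatives had changed. With 3 libraries per genotype, 0.1 is the smallest p that the two-sided exact permutation test allows, so that no pair could pass, and 7 pairs were compared. The log2 ratio of Cry1 to Cry2 went from -0.20 ± 0.11 (SD, n = 3) in WT to -1.75 ± 0.08 (SD, n = 3) in Nono-KO libraries, a difference of -1.54 with no overlap (exact permutation p = 0.1, 0.175 adjusted over the pairs). The ratio of Nr1d1 to its paralog Nr1d2 went from 2.87 ± 0.28 to 4.52 ± 0.42 (SD, n = 3 each, exact permutation p = 0.1). Both shifts were larger than the spread of the libraries. In the Per family the shifts were smaller. Per1 to Per2 went from 1.39 ± 0.10 to 1.70 ± 0.14 without overlap (SD, n = 3 each, exact permutation p = 0.1), Per1 to Per3 differed by 0.26 with overlap (exact permutation p = 0.2) and by 0.16 without WT replicate 1, and Per2 to Per3 differed by -0.06 (exact permutation p = 0.9). The ratio of Arntl to Nr1d1, an activator to its own repressor, was -2.25 ± 0.23 in WT and -2.66 ± 0.17 in Nono-KO libraries (SD, n = 3 each, exact permutation p = 0.1). The ratio of Clock to Npas2 differed by -2.55 (exact permutation p = 0.2) but rests on 0 to 5 reads of Npas2 per library, and without WT replicate 2 the difference was -1.49.

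**Figure D3:**
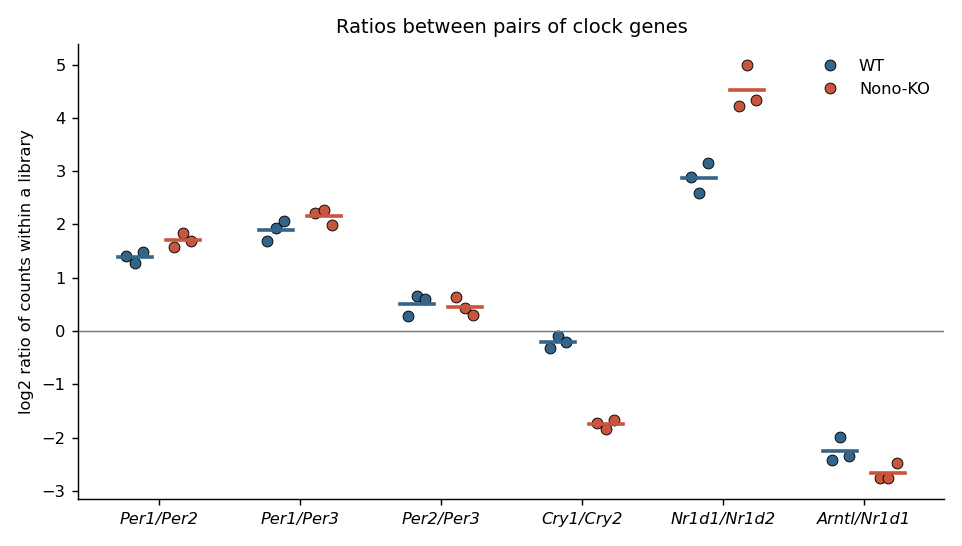
Log2 ratio of read counts of 2 genes in the same library (vertical axis) for 6 pairs of clock genes (horizontal axis). Points are libraries and bars group means, and the Cry1/Cry2 ratio lies at -0.31 to -0.09 in WT and at -1.84 to -1.68 in Nono-KO.

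Among genes of the interlocking loops and outputs next to the core clock, 13 were listed and 9 tested. Of these 3 fell (33.3%) and 2 rose (22.2%), near the 38.1% and 34.2% of all tested genes, with a median log2FC of 0.08 against -0.05 over all genes. This list and those below were chosen with earlier results of these data known, so that their shares are descriptive only. Nr1d2, or Rev-Erb beta, fell from 9.24 ± 0.88 to 3.22 ± 0.71 CPM (SD, n = 3 each), a log2FC of -1.52 (SE 0.20), whereas its paralog Nr1d1 did not pass. Bhlhe40 (Dec1), which competes with Clock and Arntl at E-boxes, fell from 164 ± 5.89 to 59.1 ± 2.21 CPM (SD, n = 3 each), and Cipc, an inhibitor of Clock and Arntl, fell by 0.61 on the log2 scale (SE 0.10). Timeless, which in mammals acts mainly at replication forks, rose by 1.16 (SE 0.12). Ciart (Chrono), another repressor of Clock and Arntl, rose from 1.79 ± 0.15 to 3.13 ± 0.28 CPM (SD, n = 3 each) and was picked once its values were known. Of the D-box factors beside Dbp, Tef had a log2FC of 0.08 (SE 0.08, adjusted p = 0.41), the D-box repressor Nfil3, picked once its values were known, one of 0.18 (SE 0.13, adjusted p = 0.217), and Hlf, which like Rora falls outside the naming rule, had 1 read over the 6 libraries together. Dbp was thus the only one of these D-box factors that passed, and the difference between them was not tested. Rora had 5 to 13 reads per library and a log2FC of 0.30 (SE 0.43).

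Enzymes that set the stability of Per and Cry proteins were lower more often than higher. All 25 listed were tested. Falls were called for 16 (64%) and rises for 6 (24%), with a median log2FC of -0.48. Csnk1a1, the casein kinase 1 alpha, fell by 1.80 (SE 0.10), while Csnk1d and Csnk1e, the kinases best known for phosphorylating Per, had log2FC values of -0.05 (adjusted p = 0.618) and -0.08 (adjusted p = 0.51) and were picked once their values were known. The deubiquitinase Usp7 fell by 1.57 (SE 0.12). Of the kinases of clock proteins, Prkaa1, a subunit of the AMP-activated kinase, fell by 1.43 (SE 0.17) and Gsk3b fell by 1.15 (SE 0.13). Btrc, a ubiquitin ligase subunit that targets Per, fell by 0.26 and was likewise picked once its values were known. Among the members with the highest CPM, the phosphatase subunit Ppp1ca rose by 0.50 (SE 0.09) and the ligase adaptor Ddb1 by 0.22 (SE 0.08). Over all tested genes 38.1% fell and 34.2% rose. Since the enzymes were listed with earlier results of these data known, the difference in shares is no test of them.

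Of the partners through which Per and the Clock-Arntl pair act on chromatin and RNA, 24 were listed and 23 tested. They too were listed with earlier results of these data known, so that their shares are no test of the partners. Falls were called for 17 (73.9%, against 38.1% of all tested genes) and rises for 3 (13%, against 34.2%), with a median log2FC of -0.57, and 9 were DEGs with lower RNA, as were 18.7% of all tested genes. The histone methyltransferase Kmt2a, the acetyltransferase Ep300 and the demethylase Kdm5a, all coactivators of Clock and Arntl, fell by 1.92 (SE 0.14), 1.84 (SE 0.13) and 1.62 (SE 0.19). Rack1, a scaffold found with Arntl, rose by 0.67 (SE 0.08) and the corepressor Trim28 by 0.45 (SE 0.10). The paraspeckle relatives of Nono moved apart, as Sfpq fell by 0.49 and Pspc1 rose by 0.42, both picked once their values were known.

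**Figure D4:**
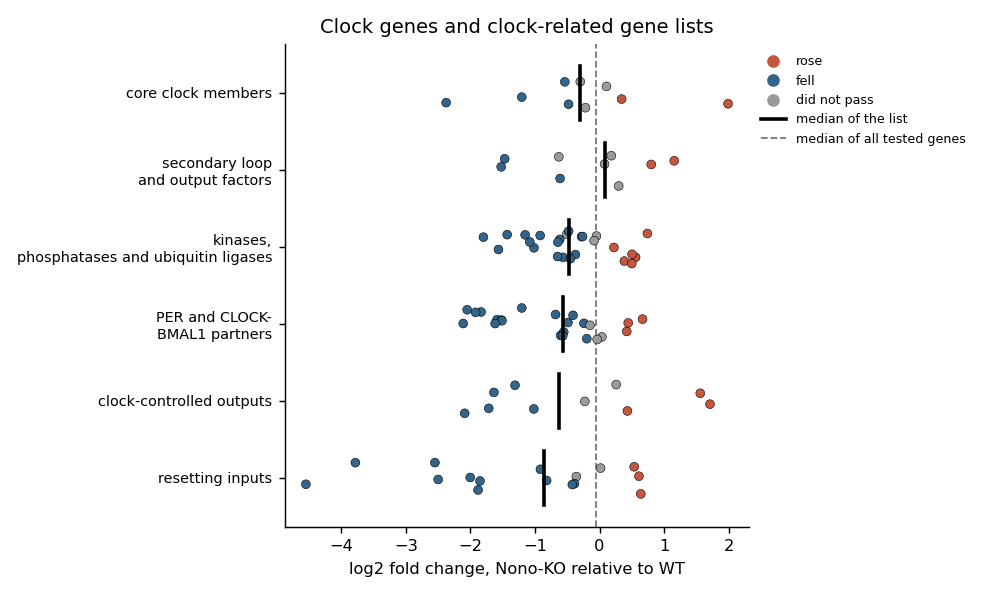
Log2FC of Nono-KO relative to WT (horizontal axis) for each tested gene of the core clock and of 5 clock-related lists (vertical axis). Points are genes coloured by the outcome of the test, black bars are list medians, between -0.87 and 0.08, and the dashed line is the median of all tested genes at -0.05.

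Of 17 listed clock-controlled genes of the cell cycle, metabolism and muscle 10 were tested. The 5 that fell (50%) and the 3 that rose (30%) compare with 38.1% and 34.2% of all tested genes, and the median log2FC was -0.62. Wee1, the kinase that holds back mitosis and is driven by E-boxes, fell from 31.3 ± 2.39 to 7.35 ± 0.46 CPM (SD, n = 3 each), and on the log2 scale Noct, a rhythmic phosphatase of NADP(H), fell by 1.72 (SE 0.23) and Nampt, of NAD synthesis, fell by 1.64 (SE 0.15). The cyclin Ccnd1 fell by 1.02 (SE 0.09), and the inhibitor of cyclin-dependent kinases Cdkn1a rose from 211 ± 24.7 to 691 ± 8.43 CPM (SD, n = 3 each). Cdkn2a, whose products include p16-Ink4A, is a gene at which Nono and Per proteins have been placed. Cdkn2a rose by 0.43 (SE 0.08, adjusted p = 0.000616) and was picked once its values were known. Counts per gene symbol do not tell its transcripts apart. Wee1 fell and Dbp rose, both of them genes with known E-boxes, and the part of E-boxes in these changes was not tested. The Dbp window shown above held none of the searched motifs. Among the muscle outputs, Myod1 had a log2FC of 0.26 (SE 0.11, adjusted p = 0.0501) and Tcap had 2 to 11 reads per library, both picked once their values were known.

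All 16 listed genes of the signals that reset the clock were tested. Of them 11 fell (68.8%, against 38.1% of all tested genes) while 3 rose (18.8%, against 34.2%), with a median log2FC of -0.87. As this list was also chosen with earlier results of these data known, these shares only describe it. The serum- and cAMP-induced factor Egr1 fell from 158 ± 43.0 to 11.5 ± 0.54 CPM, Fosb from 34.6 ± 13.4 to 5.90 ± 0.77 CPM and Junb from 479 ± 90.3 to 130 ± 8.21 CPM (SD, n = 3 each). Ier2 fell by 1.85 (SE 0.14). Nr3c1, the glucocorticoid receptor through which the hormone sets peripheral clocks, fell by 2.50 (SE 0.19). Those that rose, picked once their values were known, were Sik1 (0.64), Dusp1 (0.61) and Atf3 (0.54). Atf3 lay near the threshold (SE 0.22, adjusted p = 0.0424 in edgeR), with 2.34 to 3.33 CPM in WT and 3.44 to 4.68 CPM in Nono-KO libraries. The count of these genes that rose was 2 or 3, depending on the setting or the library left out. Sik1 is a kinase that restrains the response of Per1 to cAMP. These genes differed between the same libraries as the clock genes, and their part in the change of the clock genes was not tested.

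Some markers of muscle differentiation moved with the genotype as well. Of all tested genes 34.2% rose and 38.1% fell. Of the 6 skeletal myoblast markers 4 had a row and were tested, and Myf5 and Pax7 were not analysed here. The summed CPM of the 4 was 565 to 747 over the WT libraries and 870 to 968 over the Nono-KO libraries. Of the 4, 2 rose (50%, Myog and Des) and 0 fell. Myog rose from 6.50 ± 1.63 to 106 ± 10.1 CPM, a log2FC of 4.03 (SE 0.16). Des rose from 22.1 ± 5.62 to 96.8 ± 8.90 CPM, a log2FC of 2.13 (SE 0.15, SD and n = 3 for each mean). Cdh15, the largest part of the sum, had 419 to 573 CPM in WT and 540 to 601 CPM in Nono-KO libraries. Neither Cdh15 (adjusted p = 0.0704) nor Myod1 (adjusted p = 0.0501) passed the edgeR test. Smooth muscle markers summed to 6356 to 7139 CPM in WT libraries and 14321 to 15375 CPM in the knockout and 5 of 5 rose. The 10 cardiomyocyte markers summed to 48.7 CPM in WT replicate 1, 116 to 127 CPM in the other WT libraries and 175 to 204 CPM in the knockout. Tnnt2 (cardiac troponin T), the largest part of the sum in the other libraries, had 13.4 CPM in WT replicate 1, 78.0 and 83.0 CPM in the other WT libraries and 111 to 137 CPM in the knockout, and did not pass (adjusted p = 0.18). Of the 10 markers 5 were tested, of which 2 rose (40%, Actc1 and Nkx2-5) and 0 fell. Myh6, Myh7, Nppa and Ryr2 had 0 to 18 reads per library in either group. Of the 6 fibroblast markers 4 were tested, of which 1 rose (25%) and 3 fell (75%). The 6 summed to 34210 to 41827 CPM in WT libraries and 25222 to 30093 CPM in the knockout. The 3 endothelial markers with a row had 0 to 4 reads per library, and of the 2 macrophage markers analysed Csf1r fell and Cd68 did not pass, with sums of 3.3 to 6.5 CPM in WT and 1.3 to 1.8 CPM in Nono-KO libraries. The part of this shift in the change of the clock genes was not tested.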

How the data were processed

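RNA-seq libraries of WT (n = 3) and Nono-KO (n = 3) H9c2 cells were analysed. The authors deposited raw read counts per gene symbol, with no scaling and no pooling, in a table whose 6 columns equal the 6 files of single libraries. The libraries were stranded and poly(A)-selected. HISAT2, HTSeq, Trimmomatic and the build mRatBN7.2 stand in the submitters' processing notes, whereas the study's methods give Bowtie2 with Rn6. The sources used here give neither the gene annotation nor the strand setting of the counting.

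Groups and replicate numbers came from the sample titles. Counts were tested in R 4.3.3 with the quasi-likelihood test of edgeR 4.0.16 (TMM, robust dispersions, filterByExpr), which kept 12028 of 16319 genes, with Benjamini-Hochberg adjustment over all of them. The study itself used DESeq2, here an alternative (version 1.42.0). The SE was taken as the size of the log2FC over the square root of its F statistic. Ratios within a library used counts plus 0.5. Levels were not compared between genes, as transcript lengths were not used here. With 17612958 to 19253858 counts per library, genes with a few reads have no precise fold change, and p-values measure only the spread between these libraries, whose cultures the labels do not describe.

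The members and the 5 clock-related lists were chosen with earlier results of these data known. Named are all members, Nono, in each list up to 4 genes with the largest significant change at 5 CPM or more in the higher group, and the 2 with the highest CPM. Others are marked as picked once their values were known. Some genes that this rule selects are not reported here. Promoter windows came from RefSeq (GRCr8). The test was checked on simulated data. The alternatives tried were other scalings and filters, DESeq2, non-robust dispersions, a block for the replicate number, thinning to the smallest library, and leaving out each library.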

Additional observations from a re-analysis of the deposited data

How the results depend on the processing

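Clock, Cry1, Per2 and Per3 fell and Dbp and Cry2 rose in each of the 9 other settings and without any 1 library, with no change of direction or call. Over the settings the log2FC ranged from -2.43 to -2.32 for Clock, from -1.26 to -1.15 for Cry1 and from 1.93 to 2.05 for Dbp. Leaving out 1 library at a time, it ranged from -2.59 to -2.12 for Clock, from -1.30 to -1.15 for Cry1, from -0.64 to -0.45 for Per2, from -0.52 to -0.46 for Per3, from 0.30 to 0.40 for Cry2 and from 1.90 to 2.16 for Dbp. Nr1d1 did not pass in any setting. Arntl and Per1 changed their call. Arntl passed with total counts (-0.35) and thinned counts (-0.30), and ranged from -0.35 to -0.24 without 1 library (adjusted p 0.0207 to 0.214, edgeR), passing only without WT replicate 1. Per1 passed with total counts (-0.27) and without the filter (-0.25), and ranged from -0.30 to -0.13 without 1 library (adjusted p 0.00939 to 0.314, edgeR), again passing only without WT replicate 1. The count of clock genes that fell was therefore 4 to 6 of 9 tested (10 in the settings that test Npas2), and the count that rose was 2 throughout. The small difference in the Per2/Per3 ratio changed sign without WT replicate 2 (0.016) and without Nono-KO replicate 3 (0.024), and ranged from -0.17 to 0.024. Without 1 library the Per1/Per3 difference ranged from 0.16 to 0.35 and the Clock/Npas2 difference from -3.62 to -1.49. The cause of these changes was not tested. No count of a clock-related list moved by more than 1.5 times. Total counts in place of TMM shifted all genes by -0.06 and size factors by 0.05.

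Samples with the same replicate number did not deviate together (correlations of 0.07, -0.21 and -0.24 between WT and Nono-KO libraries 1, 2 and 3), so that the numbers are not taken as a pairing. With the replicate number as a block, 4 clock genes fell and 2 rose, the log2FC was -2.35 for Clock, -1.20 for Cry1 and 2.01 for Dbp, and 3944 and 4443 of all genes rose and fell. Npas2 was tested only without the filter (-0.50, adjusted p = 0.704) and in DESeq2 (-0.45, adjusted p = 0.842), did not pass in either, and without the added 0.5 the Clock to Npas2 ratio has no value, since 1 library holds 0 reads of Npas2.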

Other observations

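Several clock-related genes that had too few reads for the test were near absent in both genotypes. Arntl2, a relative of Arntl, had 5, 5 and 0 reads in WT and 4, 5 and 2 in Nono-KO libraries. Ppara, a nuclear receptor of fatty acid metabolism that Clock and Arntl can drive, had 20, 9 and 5 against 7, 2 and 8 reads, Klf15 had 12, 4 and 2 against 2, 7 and 3, and Ppargc1a and Kcnip2 had 1 read each over the 6 libraries.

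The glucose transporter Slc2a4 (GLUT4), listed among the clock outputs of muscle, rose from 10.4 ± 2.01 to 30.8 ± 2.02 CPM (SD, n = 3 each), a log2FC of 1.56 (SE 0.15, adjusted p = 2.54e-06 in edgeR), while hexokinase 2 (Hk2) of the same list fell by 1.31 (SE 0.13, adjusted p = 3.66e-06). The ubiquitin hydrolase Usp2, an output that also acts on Per1 and Arntl, rose by 0.74 (SE 0.11, adjusted p = 0.000101). These genes were picked once their values were known.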
